A study of Homo sapiens with 58 samples.

Results

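The question addressed here was whether arsenite stress changed where in the cell HuR was found on RNA, that is, whether the nuclear to cytoplasmic distribution of HuR CLIP tags differed between stressed and unstressed cells. The members were 12 of the 58 libraries of the series, those made from separated nuclear and cytoplasmic fractions: 3 nuclear mock, 3 nuclear arsenite, 3 cytoplasmic mock and 3 cytoplasmic arsenite libraries. The measure was the difference of differences on the log2 scale, (nuclear arsenite minus cytoplasmic arsenite) minus (nuclear mock minus cytoplasmic mock), called the interaction below. An interaction above 0 means that the nuclear level relative to the cytoplasmic level was higher after arsenite than in mock cells, and one below 0 that it was lower. It was fitted for 334689 of 387214 peaks and for the summed peaks of 12629 of 13836 gene names.

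All 12 libraries came from wild-type Huh-7.5 cells, a line derived from a human hepatocellular carcinoma, with no proximity labelling. Arsenite cells received 0.5 mM sodium arsenite for 45 min and mock cells none. Cells were crosslinked with UV light in doses of 400 and 200 mJ/cm2 before they were fractionated, and HuR was immunoprecipitated with antibody 3A2. The labels number the libraries 1 to 3 in each group and do not say whether these were separate cultures, so p-values measure the spread between these libraries, which may be technical. The comparison covers a single tumour line and a single dose and time, and how strongly RNase was diluted for each library is not given in the sources used here.

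HuR, encoded by ELAVL1, is a ubiquitous RNA-binding protein that recognises U-rich and AU-rich sequence in introns and in 3' untranslated regions. It is mostly nuclear at rest and shuttles to the cytoplasm, where it is known for stabilising mRNAs and for acting on their translation. Arsenite causes oxidative stress, stops most translation initiation, and gathers untranslated mRNA with proteins such as G3BP1 in cytoplasmic stress granules. CLIP tags mark RNA that was crosslinked to HuR, so the amount of an RNA in a fraction and the amount of HuR bound per RNA cannot be told apart in any value below.

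The libraries held 686263 to 1759090 tags, of which 235471 to 673322 lay in peaks. One tag was worth 0.568 to 1.46 CPM, tags per 1000000 of the library total, so peaks of a few CPM rest on a handful of tags. Of 8 hepatic marker genes, 6 had peaks, with a summed level of 1148 to 1246 CPM in nuclear mock and 2052 to 2817 CPM in cytoplasmic mock libraries. Fibroblast markers, of which 1 of 5 had a peak, and endothelial markers, with 2 of 4, reached at most 1.60 and 1.73 CPM in any library. Of 5 immune markers only LYZ and PTPRC had peaks, and they summed to 4.83 to 8.18 CPM in nuclear mock, 2.40 to 4.004 in nuclear arsenite, 17.3 to 21.1 in cytoplasmic mock and 5.56 to 7.39 in cytoplasmic arsenite libraries; their part in the results was not tested.

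The fraction labels were set against RNAs of known location. GAS5 and SNHG1, host transcripts from which small nucleolar RNAs are cut in the nucleus, had 494 ± 44.4 and 479.6 ± 15.9 CPM in nuclear mock libraries and 46.7 ± 8.27 and 40.8 ± 11.1 CPM in cytoplasmic mock libraries (mean ± SD, n = 3). For GAS5 the nuclear excess was 3.35 log2 units in mock and 3.69 after arsenite, and for SNHG1 3.52 and 2.67. MALAT1, a nuclear speckle RNA, did not follow its textbook location, with 2561 ± 198 CPM in nuclear and 2394 ± 286 CPM in cytoplasmic mock libraries. The 5 nuclear RNA markers summed to 3900.4 to 4163 CPM in nuclear mock and 2414 to 2990.4 in cytoplasmic mock libraries, and after arsenite the fractions overlapped, at 3620.0 to 4439 and 2744 to 3743 CPM. The 2 cytoplasmic RNA markers, NORAD and OIP5-AS1, summed to 42.3 to 50.0 CPM in nuclear mock, 141 to 162 in nuclear arsenite, 145 to 196 in cytoplasmic mock and 147 to 163 in cytoplasmic arsenite libraries. Neither marker sum separated the fractions after arsenite, and whether RNA of either fraction carried over into the other was not tested.

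The nuclear and cytoplasmic HuR profiles lay far apart in mock cells and close together after arsenite, and the classes that moved most were 3'UTR and intron peaks. In nuclear mock libraries 12.02%, 12.1% and 11.1% of the tags in peaks fell in 3'UTRs, against 37.1%, 45.3% and 44.6% in cytoplasmic mock libraries. After arsenite these shares were 20.7%, 18.7% and 18.2% in the nucleus and 24.8%, 25.3% and 23.5% in the cytoplasm. The 4 groups did not overlap, cytoplasmic mock library 1 lay below the other 2 of its group, and the gap between fractions was 30.6 percentage points in mock and 5.28 after arsenite. The interaction of the 3'UTR share was 25.3 points (two-sided exact permutation p 0.005, the smallest that the 400 relabellings of mock and arsenite within each fraction can give here; Benjamini-Hochberg adjusted over 10 classes 0.0083).

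Intron shares moved the other way. They were 53.9%, 53.6% and 54.3% in nuclear mock and 34.8%, 28.1% and 28.6% in cytoplasmic mock libraries, and 45.7%, 48.1% and 48.1% and 43.1%, 43.5% and 44.6% after arsenite, an interaction of -19.8 points (exact permutation p 0.005, adjusted 0.0083). Cytoplasmic mock libraries had the lowest intron share of the 4 groups, and after arsenite the fractions differed by 3.59 points. Non-coding RNA peaks followed introns with -3.52 points, as did transposable elements with -1.06 points (exact permutation p 0.005 each), while coding sequence had 0.310 points (exact permutation p 0.005). The relabelling test asks whether arsenite changed either fraction, so a small p is not specific to the interaction. Its direction was the same in all 81 combinations of 1 library per group for each of these classes.

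Small nucleolar RNAs stayed nuclear. Their share was 0.571% ± 0.0243 in nuclear mock and 0.0655% ± 0.0152 in cytoplasmic mock libraries, and 0.251% ± 0.0445 and 0.0191% ± 0.00327 after arsenite (SD, n = 3). The interaction of -0.274 points did not pass the test (exact permutation p 0.1), and its sign depends on the scale: on log2 shares, an alternative added for this class after the data were seen, the nuclear excess was 3.15 in mock and 3.72 after arsenite, an interaction of 0.56 (exact permutation p 0.58). No other class turned its sign between these scales. The test also did not pass for unannotated peaks (-0.495 points, exact permutation p 0.24) or for peaks a short way downstream of genes (0.242 points, exact permutation p 0.42). The plot of tag shares by annotation class gives every library.

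**Figure D1:**
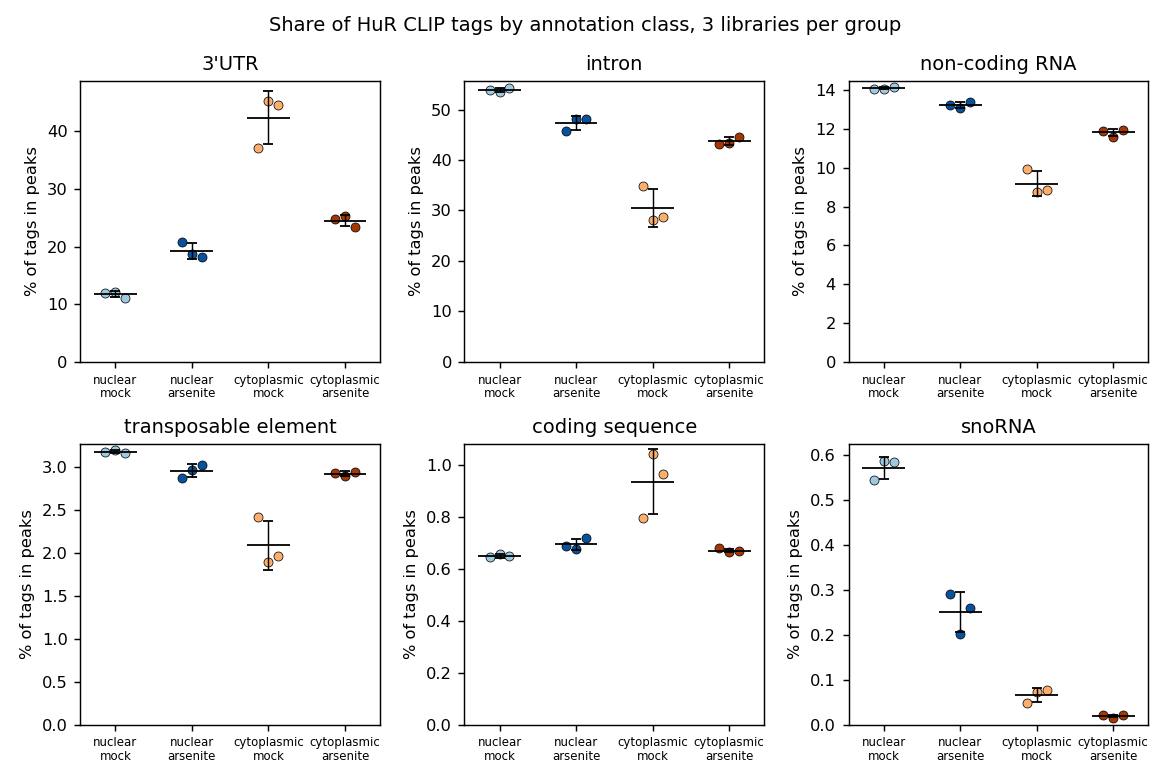
Share of a library's tags in peaks (y axis, percent, starting at 0) for 6 annotation classes in the 4 groups (x axis); points are single libraries, horizontal lines group means and error bars 1 SD (n = 3). In the 3'UTR and intron panels the nuclear and cytoplasmic groups are far apart in mock and near each other after arsenite, where the 3'UTR gap is 5.28 points against 30.6 in mock.

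Gene by gene, the same pattern appeared as a shift of whole distributions. For the summed 3'UTR peaks of a gene, the median nuclear minus cytoplasmic difference over 7282 tested genes was -0.77 in mock (quartiles -1.49 and -0.21) and -0.14 after arsenite (quartiles -0.46 and 0.13), in log2 units. For summed intron peaks of 9222 genes it was 0.38 in mock and 0.04 after arsenite. The cytoplasmic lead of 3'UTR tags and the nuclear lead of intron tags were both smaller after arsenite. The order of genes was partly kept: Spearman's rho between the mock and arsenite differences was 0.43 across 3'UTR sums and 0.26 across intron sums, a description across genes that share all 12 libraries.

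Called here means a Benjamini-Hochberg adjusted p under 0.05 over all features tested. Of the 3'UTR sums limma called 28.9%, namely 2085 above 0 (28.6%) and 16 below 0 (0.22%). Of the intron sums it called 11.5%, 57 above (0.618%) and 1002 below (10.9%). The edgeR test on whole tags called 1946 and 9 3'UTR sums, and 54 and 1071 intron sums, and it shared 1878 and 1015 calls with limma, all of one sign in both. The median interaction was 0.63 for 3'UTR sums and -0.36 for intron sums, and 82.0% and 26.3% of them were above 0.

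Shares of the tags in peaks add to a fixed total, so a larger 3'UTR share leaves a smaller share for the other classes together. CPM is relative to the library total, of which 34.1% to 38.7% lay in peaks, and the scale on which a gene is read matters. Centring each library on the median of the 3'UTR sums, which moves their median interaction by -0.67, left 739 calls above and 321 below 0, and edgeR's TMM scaling within 3'UTR sums left 228 and 81. Centring on the median of the intron sums, a move of 0.20, left 71 above and 337 below, and TMM 54 and 17. Counts after centring or TMM describe genes that moved more or less than their class, while CPM counts hold the class shift as well. Without a trend of the prior variance with level, an alternative added after the data were seen, limma on CPM called 13 intron sums above and 13 below 0, in place of 57 and 1002, with the estimates unchanged.

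**Figure D2:**
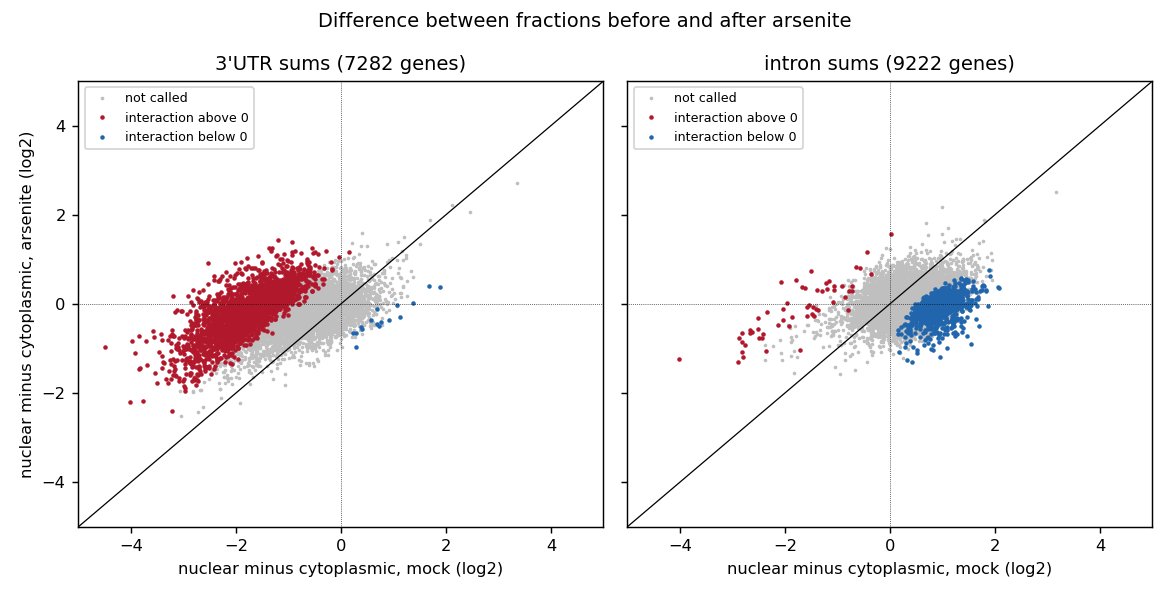
Nuclear minus cytoplasmic difference of each gene in mock cells (x axis, log2) against the same difference after arsenite (y axis, log2), for 3'UTR sums (left) and intron sums (right); each point is a gene, red and blue points were called above and below 0 in the interaction, and the diagonal marks an interaction of 0. Of the 2085 red 3'UTR sums, 2084 lie left of 0, all above the diagonal, and the 1002 blue intron sums lie right of 0 and below it.

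Which fraction moved was read from the change in each, as a description without a test. Among the 2085 3'UTR sums called above 0, nuclear values changed with arsenite by a median of 0.79 and cytoplasmic values by -0.79. Of these genes 1778 had a higher nuclear and a lower cytoplasmic mean after arsenite, and in 1050 the nuclear change was the larger one. The 1002 intron sums called below 0 changed by -0.21 in the nucleus and 0.72 in the cytoplasm, and the nuclear change was the larger in 176. In these called sums both fractions took part in the 3'UTR shift, and most of the intron shift lay in the cytoplasmic libraries. The interaction is the nuclear minus the cytoplasmic change, so genes picked by it tend to change in opposite directions. Without such picking, the mean 3'UTR share of tags went from 11.7% to 19.2% in nuclear libraries with arsenite. In cytoplasmic libraries it went from 42.3% to 24.5%. The mean intron share went from 53.9% to 47.3% in nuclear and from 30.5% to 43.7% in cytoplasmic libraries.

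In nearly all called genes the difference between fractions shrank or changed side. Of the 2085 3'UTR sums, 2084 were cytoplasmic in mock; 1295 stayed on the cytoplasmic side with a smaller difference and 789 became nuclear by their means, while 1 had a wider difference. All 1002 intron sums called below 0 were nuclear in mock, and 591 of them had a higher cytoplasmic than nuclear mean after arsenite. The mock difference is itself a term of the interaction, so these counts by mock side are in part fixed by arithmetic.

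**Figure D3:**
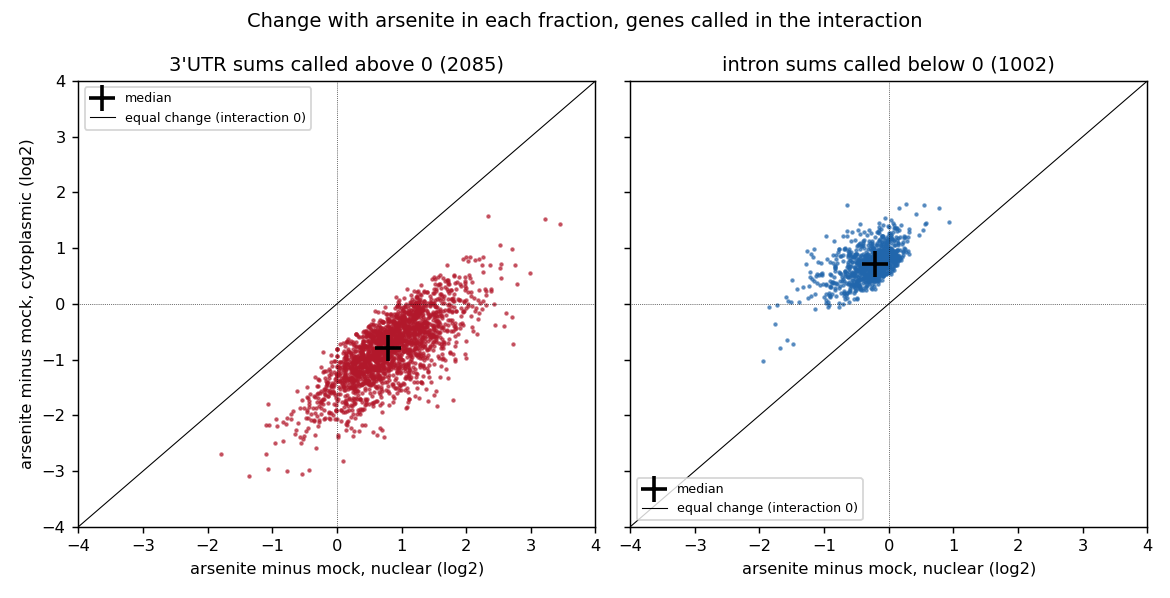
Change with arsenite in the nuclear fraction (x axis, log2) against the change in the cytoplasmic fraction (y axis, log2) for the 2085 3'UTR sums called above 0 (left) and the 1002 intron sums called below 0 (right); each point is a gene, the cross is the median and the diagonal marks equal change in both fractions. The 3'UTR cross sits at 0.79 and -0.79, and the intron cross at -0.21 and 0.72. The genes were picked by the difference between these same changes, which favours opposite directions.

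Most 3'UTR sums with many tags were called. Among 3'UTR sums with a mean log2 level over 7, 59 of 60 were called above 0, with a median interaction of 1.78. The counts were 461 of 522 at 5 to 7, 1080 of 1861 at 3 to 5 and 485 of 4839 under 3, where the median standard error was 0.47 and the median interaction 0.37. Of intron sums over 7, 179 of 203 were called below 0, against 49 of 5540 under 3. The pseudocount of 2.28 CPM pulls the values of low genes towards 0, so a low gene that was not called may still have differed.

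Among those 60 3'UTR sums the largest interactions were on CORO1C, which encodes an actin-binding coronin, CTNNB1, which encodes beta-catenin, HNF4A, a hepatocyte transcription factor, and LARP1, a regulator of ribosomal protein mRNA translation; these genes were picked after their values were seen. CTNNB1 3'UTR sums were 94.7, 111 and 144 CPM in the nuclear mock libraries, 266, 258 and 225 after arsenite, 508, 748 and 785 in the cytoplasmic mock libraries and 201, 249 and 215 after arsenite. The cytoplasmic lead of mock cells was gone after arsenite, when the nuclear and cytoplasmic values overlapped, and the interaction was 2.69 ± 0.23 (SE, limma adjusted p 1.0e-13). HNF4A gave 2.62 ± 0.25 (SE, limma adjusted p 2.2e-12), with 51.9 ± 10.8 CPM in nuclear mock, 140.5 ± 17.4 in nuclear arsenite, 343 ± 59.0 in cytoplasmic mock and 146 ± 16.4 in cytoplasmic arsenite libraries. For LARP1 the nuclear mean passed the cytoplasmic one, 166 ± 16.7 against 138 ± 10.3 CPM after arsenite (SD, n = 3), and the interaction was 2.55 ± 0.24 (SE, limma adjusted p 3.6e-12).

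The exception among the 60 was IGF2, an insulin-like growth factor expressed in fetal liver and liver tumours. Its 3'UTR sum was 232, 276 and 282 CPM in the nuclear mock libraries, 77.7, 72.0 and 52.0 after arsenite, 1092, 1304 and 1274 in the cytoplasmic mock libraries and 197, 259 and 244 after arsenite. Both fractions were lower after arsenite by a similar factor, the groups kept their order, and the interaction of 0.44 ± 0.22 did not pass (limma adjusted p 0.13). A single 3'UTR peak of IGF2 was nevertheless called above 0 by limma in the fit of peaks, at 0.42 ± 0.09 (SE). GPC3, a cell-surface glypican of liver tumours, gave 0.66 ± 0.22, STT3A, a subunit of the oligosaccharyltransferase, 0.91 ± 0.25, and ARPC4, of the actin-nucleating Arp complex, 1.08 ± 0.24 (SE). These were also picked after their values were seen. The sign of all 4 turned under TMM scaling within 3'UTR sums, which moves the median of the class by -1.14 in edgeR. Estimates as low as these can turn by that common move alone. GPC3, STT3A and ARPC4 lost the call in 6, 3 and 2 of 22 alternatives.

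A ratio within a gene takes out any change that all of its tags share. On log2(3'UTR sum) minus log2(intron sum), 37% of 5979 genes were called, 2203 above 0 (36.8%) and 8 below (0.134%), with a median of 1.14. In 352 genes the 3'UTR sum was called above 0 and the intron sum below 0, while 3 genes were called above 0 in both. Centring the ratio itself on its median, which removes the shift common to all genes, left 147 above and 23 below.

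ADAR, which encodes an adenosine deaminase acting on double-stranded RNA, had the largest ratio interaction, 4.26 ± 0.56 (SE, limma adjusted p 6.3e-05). Its 3'UTR held 20.4, 30.9 and 24.1 CPM in nuclear mock libraries, 63.3, 70.4 and 43.3 after arsenite, 129.8, 169 and 195 in cytoplasmic mock libraries and 57.0, 75.6 and 60.5 after arsenite. Its introns held 16.03, 18.2 and 18.3, 8.01, 5.60 and 5.20, 1.06, 9.17 and 8.44 and 9.39, 10.2 and 6.96 CPM in the same order. The 3'UTR values of the fractions were separate in mock and overlapped after arsenite, and intron tags were most frequent in nuclear mock libraries. CORO1C gave 4.26 ± 0.54 (SE, limma adjusted p 6.3e-05) and STK35, which encodes a protein kinase, 4.19 ± 0.64 (SE, limma adjusted p 1.7e-04).

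Of the 8 ratios called below 0, 3 are named by rule. SMN1, which encodes a protein of small nuclear ribonucleoprotein assembly, gave -2.32 ± 0.64 (SE, limma adjusted p 0.0067), KDM4C, a histone demethylase gene, -1.98 ± 0.43 (SE, limma adjusted p 0.0012), and C3orf38 -1.62 ± 0.59 (SE, limma adjusted p 0.031). KDM4C had at most 2.60 CPM in its 3'UTR in any library, and its intron peaks, unlike most, were cytoplasmic in mock, with 100.3 ± 2.42 and 657 ± 102 CPM in nuclear and cytoplasmic mock libraries and 172 ± 22.9 and 257 ± 14.8 after arsenite (SD, n = 3). The SMN1 3'UTR was at 0 in all cytoplasmic mock libraries and had at most 4.37 CPM in any library. Its estimate ran from -4.48 to -0.91 across the alternatives, so its size depends on the pseudocount. The C3orf38 3'UTR had at most 4.07 CPM in any library. SMN1 has a near-identical copy with which its tags could be split. KDM4C lost the call in 1 of 20 alternatives (limma adjusted p 0.11 at the smaller pseudocount of 0.571 CPM) and C3orf38 in 6 (limma adjusted p up to 0.097).

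At single peaks of 20 nt, limma called 0.352% of 334689, 1064 above 0 (0.318%) and 115 below (0.0344%), and edgeR 1087 and 69; 893 peaks were called by both, with one sign. Of the 1064, 858 were in 3'UTRs, where none of 34887 tested peaks was called below 0 by limma, 460 were below 0 at an unadjusted p under 0.05, and edgeR called 1. Of the 115, 76 (66.1%) were in introns, which held 57.3% of all tested peaks. Another 18 (15.7%) were in non-coding RNA and 7 (6.09%) in transposable elements, which held 11.2% and 3.60% of tested peaks. Introns, which here include the table's class of introns retained next to coding sequence, also held 38 (3.57%) of the peaks above 0. A further 84 (7.89%) were unannotated, a share below the 11.6% of tested peaks in that class. All 1064 had a lower nuclear than cytoplasmic mean in mock, with a median difference of -2.21, and 0.04 after arsenite.

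For the brightest peaks the limma p-values are too small. The 46 peaks with a mean log2 level over 7 had a median residual variance of 0.0492, but the trend drew them, with 141 prior degrees of freedom, towards 0.00587, so edgeR's adjusted p is given beside limma's for named peaks. Without the trend, an alternative added after the data were seen, 1590 peaks were called above and 369 below 0. With arsenite nuclear library 1 or arsenite cytoplasmic library 1 or 3 left out, 734, 728 and 738 peaks were called in place of 1179.

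The 6 largest called interactions above 0 at peaks with a gene name, whose sign held in all 81 combinations, were all in 3'UTRs. Positions are 1-based on GRCh38.p14, on the reading that the table's starts count from 0. The CORO1C peak (ENSG00000110880, chromosome 12, 108645213 to 108645232, minus strand) had 42.3, 46.4 and 44.4 CPM in the nuclear mock libraries, 148, 124 and 99.6 after arsenite, 361, 450.2 and 482 in the cytoplasmic mock libraries and 86.6, 96.6 and 103 after arsenite. Cytoplasmic mock libraries stood far above the rest, and after arsenite the nuclear and cytoplasmic values lay together, with an interaction of 3.56 ± 0.14 (SE, limma adjusted p 1.7e-49, edgeR adjusted p 1.7e-22). The TOB1 peak (ENSG00000141232, chromosome 17, 50862874 to 50862893, minus strand), on the mRNA of an antiproliferative protein that recruits the deadenylase, had 1.46, 4.55 and 5.79 CPM in the nuclear mock libraries, 24.0, 24.0 and 16.5 after arsenite, 24.5, 41.8 and 50.6 in the cytoplasmic mock libraries and 5.78, 17.6 and 9.04 after arsenite, and an interaction of 3.69 ± 0.51 (SE, limma adjusted p 6.2e-08, edgeR adjusted p 2.5e-12). All nuclear values were below all cytoplasmic ones in mock, and the groups overlapped after arsenite.

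EAF1, which encodes a transcription elongation factor, CDS2, an enzyme of phosphatidylinositol synthesis, and PLEKHB2, a membrane protein with a pleckstrin homology domain, had 3'UTR peaks with interactions of 3.55 ± 0.54 (SE, limma adjusted p 2.2e-06, edgeR adjusted p 3.5e-09), 3.48 ± 0.55 (SE, limma adjusted p 4.4e-06, edgeR adjusted p 2.0e-07) and 3.44 ± 0.54 (SE, limma adjusted p 4.3e-06, edgeR adjusted p 2.2e-06). The PLEKHB2 peak held 1.87 ± 1.63 CPM in nuclear mock, 5.45 ± 1.54 in nuclear arsenite, 62.4 ± 23.1 in cytoplasmic mock and 8.84 ± 1.22 in cytoplasmic arsenite libraries (SD, n = 3). It stayed on the cytoplasmic side, unlike EAF1 and CDS2, whose nuclear means of 10.0 and 7.60 CPM after arsenite were above the cytoplasmic ones of 5.10 and 1.69 CPM. The largest, 3.76 ± 0.55 (SE, limma adjusted p 4.3e-07, edgeR adjusted p 2.1e-09), was assigned to POTEF, whose 3'UTR is a near-copy of ACTB, so its tags may belong to ACTB.

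The 6 peaks with a gene name that were named below 0 were low. The rule passes over peaks without a gene name, and 4 such peaks, 2 of lncRNA and 2 unannotated, had interactions of -2.57, -2.54, -2.47 and -2.46, larger in size than the last 3 named here (called by limma; listed after their values were seen). An intron peak of GOLGA4, a golgin of the trans-Golgi (ENSG00000144674, chromosome 3, 37330215 to 37330234, plus strand), had 8.74, 5.46 and 6.76 CPM in the nuclear mock libraries, 4.80, 1.60 and 2.60 after arsenite, 1.06, 2.04 and 7.38 in the cytoplasmic mock libraries and 12.3, 26.7 and 20.2 after arsenite, and an interaction of -2.87 ± 0.56 (SE, limma adjusted p 8.2e-04, edgeR adjusted p 3.1e-04). Cytoplasmic arsenite libraries were the highest group and did not overlap with any other. Cytoplasmic arsenite libraries were also the highest at an intron peak of THRB, the thyroid hormone receptor beta (ENSG00000151090, chromosome 3, 24425838 to 24425857, minus strand), with 8.74, 1.82 and 4.83 CPM in the nuclear mock libraries, 3.20, 3.20 and 3.47 after arsenite, 1.06, 1.02 and 2.11 in the cytoplasmic mock libraries and 18.0, 14.2 and 18.1 after arsenite, and an interaction of -2.68 ± 0.55 (SE, limma adjusted p 0.002, edgeR adjusted p 0.0028).

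A peak of KDM2A, a histone demethylase gene, in the table's class of other annotations, kept its nuclear lead, with 28.7 ± 4.70 CPM in nuclear mock, 17.7 ± 3.05 in nuclear arsenite, 1.74 ± 0.595 in cytoplasmic mock and 13.98 ± 1.19 in cytoplasmic arsenite libraries (SD, n = 3), and its interaction was -2.65 ± 0.51 (SE, limma adjusted p 6.6e-04, edgeR adjusted p 4.1e-06). Intron peaks of EIF5B, a translation initiation factor, and MEF2A, a transcription factor, gave -2.46 ± 0.49 (SE, limma adjusted p 0.0014, edgeR adjusted p 0.004) and -2.39 ± 0.55 (SE, limma adjusted p 0.012, edgeR adjusted p 0.0017), and a retained-intron peak of PLEKHA5 -2.34 ± 0.55 (SE, limma adjusted p 0.015, edgeR adjusted p 0.0018). EIF5B was at 0 in all cytoplasmic mock libraries. MEF2A and PLEKHA5 lost the call in 3 and 5 of 22 alternatives, with limma adjusted p up to 0.11 and 0.079, and the other named peaks were called in all 22.

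In 5'UTRs, limma called 11 of 1661 tested peaks above 0 (0.662%, against 0.318% of all peaks), of which edgeR did not call those of JUN and USP9X (edgeR adjusted p 0.73 and 0.24). The sequences of a pair of them could be read, because both peaks, of C6orf62, lie inside the promoter windows of RefSeq (GRCh38.p14), which reach from upstream of a gene's start into its first exon; they are shown as the called 5'UTR peaks whose bound RNA is known, 5' to 3' on the transcript strand as DNA, with runs of T in capitals.
C6orf62 peak at chr6:24719142-24719161, minus strand: TTTTTTggaaagcaaggatc
C6orf62 peak at chr6:24719329-24719348, minus strand: caccaagtgtaatcaataac

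The first, which opens with a run of T, had 8.74, 9.09 and 7.72 CPM in the nuclear mock libraries, 125, 80.8 and 79.7 after arsenite, 57.4, 70.3 and 63.3 in the cytoplasmic mock libraries and 110.5, 121 and 126 after arsenite, and an interaction of 2.26 ± 0.28 (SE, limma adjusted p 3.5e-10, edgeR adjusted p 3.8e-07). Nuclear values were far below the cytoplasmic ones in mock and overlapped them after arsenite, and in both fractions every arsenite value was above every mock value. The second, without such a run, had 2.91, 6.36 and 0.966 CPM in the nuclear mock libraries, 12.01, 5.60 and 9.53 after arsenite, 19.1, 22.4 and 15.8 in the cytoplasmic mock libraries and 7.94, 6.82 and 7.65 after arsenite, and 2.19 ± 0.55 (SE, limma adjusted p 0.033, edgeR adjusted p 0.0057). Of 330 tested peaks inside such windows, 12.7% held TTTTT on the transcript strand and 4.85% on the other strand, and these 2 were the only ones called.

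The other 5'UTR peaks given here were picked after their values were seen. TOB1 had one, with 11.1 ± 3.43 CPM in nuclear mock, 80.0 ± 7.75 in nuclear arsenite, 50.3 ± 18.3 in cytoplasmic mock and 98.9 ± 15.3 in cytoplasmic arsenite libraries (SD, n = 3) and an interaction of 1.65 ± 0.31 (SE, limma adjusted p 2.8e-04, edgeR adjusted p 6.5e-04). A peak in the 5'UTR of JUN, an immediate early transcription factor, was found in the nuclear arsenite libraries (8.81, 5.60 and 6.06 CPM) and reached at most 1.05 CPM in any library of the other groups, with an interaction of 1.89 ± 0.45 (SE, limma adjusted p 0.02, edgeR adjusted p 0.73). EBP, an enzyme of sterol synthesis, had the brightest of the 11, with 60.2 ± 7.43 CPM in nuclear mock, 66.6 ± 19.7 in nuclear arsenite, 264 ± 47.9 in cytoplasmic mock and 82.7 ± 20.7 in cytoplasmic arsenite libraries and an interaction of 1.77 ± 0.19 (SE, limma adjusted p 4.4e-13, edgeR adjusted p 2.7e-05). Among 2320 coding sequence peaks 5 (0.216%) were called above 0 by limma, a share below that of all peaks, in HSP90AA1, RPL23, FLVCR1, APOB and AFP, of which edgeR called the peaks in HSP90AA1 and RPL23. Its adjusted p was 0.14 for FLVCR1, 0.17 for APOB and 0.13 for AFP.

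Estimates at peaks of one 3'UTR could differ in sign, but a difference between peaks was not tested. Of 384 genes with at least 5 tested 3'UTR peaks at a mean log2 level over 2, 194 (50.5%) had an interaction above 0 at every such peak, 190 had at least 1 peak that was not, and no gene had one below 0 at every peak. Over these genes 2492 of 2829 peaks, or 88.1%, were above 0. Peaks of one gene share their RNA and their libraries, so these counts describe transcripts, not separate binding sites.

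When all peaks of a gene were summed, both directions met. Of 12629 gene sums 13.5% were called, 1018 above 0 (8.06%) and 688 below (5.45%), and the median interaction was -0.01. Without the trend of the prior variance the counts were 786 and 201. Genes called above 0 had a median of 84.9% of their tags in the 3'UTR and a median length of 28.4 kb. Genes called below 0 had 2.29% and 157 kb, against 8.10% and 39.4 kb over all genes tested. Lengths are from RefSeq for 99.5% of genes, and the 3'UTR shares come from the same 12 libraries. Calls also followed tag level, for which these sets were not matched. Over a mean log2 level of 7, 91 gene sums were called above and 190 below 0 of 433, and under 3 it was 140 and 49 of 6919.

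Among gene sums above 0, PDXK, which encodes pyridoxal kinase of vitamin metabolism, had 8.74, 13.6 and 6.76 CPM in the nuclear mock libraries, 79.3, 60.0 and 75.4 after arsenite, 59.6, 57.0 and 70.6 in the cytoplasmic mock libraries and 38.3, 38.7 and 33.4 after arsenite. Nuclear and cytoplasmic libraries changed places: every nuclear value was below every cytoplasmic one in mock and above every one after arsenite, with an interaction of 3.38 ± 0.27 (SE, limma adjusted p 2.2e-13). CNP, which encodes a cyclic nucleotide phosphodiesterase, had 7.29, 8.18 and 1.93 CPM in the nuclear mock libraries, 17.6, 23.2 and 18.2 after arsenite, 51.1, 50.9 and 62.2 in the cytoplasmic mock libraries and 13.7, 22.7 and 15.3 after arsenite, and 3.11 ± 0.37 (SE, limma adjusted p 1.3e-08). PDCL, which encodes a phosducin-like cochaperone, had 5.86 ± 4.15 CPM in nuclear mock, 27.3 ± 3.92 in nuclear arsenite, 61.4 ± 22.6 in cytoplasmic mock and 31.6 ± 10.8 in cytoplasmic arsenite libraries (SD, n = 3), and 2.89 ± 0.38 (SE, limma adjusted p 1.0e-07).

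HSPA1B, which encodes a stress-inducible member of the heat shock chaperones, had 7.29, 14.5 and 7.72 CPM in the nuclear mock libraries, 44.8, 21.6 and 30.3 after arsenite, 51.1, 89.6 and 115 in the cytoplasmic mock libraries and 34.7, 22.7 and 18.8 after arsenite, with an interaction of 3.13 ± 0.36 (SE, limma adjusted p 3.2e-09). The fractions were separate in mock and overlapped after arsenite. Its near-identical copy HSPA1A could share these tags. POTEF and POTEI, with 3.46 ± 0.46 (SE, limma adjusted p 1.3e-07) and 3.12 ± 0.41 (SE, limma adjusted p 9.9e-08), are near-copies of actin genes and uncertain for the same reason.

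The named gene sums below 0 were low. TCF7L1, a transcription factor of the Wnt pathway, had 18.9, 21.8 and 20.3 CPM in the nuclear mock libraries, 9.61, 6.40 and 10.4 after arsenite, 8.51, 4.07 and 4.22 in the cytoplasmic mock libraries and 20.9, 11.9 and 11.1 after arsenite, and an interaction of -2.15 ± 0.42 (SE, limma adjusted p 1.5e-04). Nuclear values were above cytoplasmic ones in mock without overlap, and below them after arsenite. TBX2, another developmental transcription factor, had 13.4 ± 3.81 CPM in nuclear mock, 3.56 ± 1.20 in nuclear arsenite, 2.44 ± 0.626 in cytoplasmic mock and 5.09 ± 2.01 in cytoplasmic arsenite libraries (SD, n = 3), and -2.02 ± 0.51 (SE, limma adjusted p 0.004).

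PUDP, which encodes a pseudouridine phosphatase, gave -1.96 ± 0.49 (SE, limma adjusted p 0.0033). IFT74, of the intraflagellar transport machinery, gave -1.88 ± 0.52 (SE, limma adjusted p 0.0082), and SHPK, the sedoheptulose kinase, -1.96 ± 0.50 (SE, limma adjusted p 0.0045). SHPK was at 0 in all cytoplasmic mock libraries, so its value depends on the pseudocount. ASCC1, a subunit of a transcription coactivator complex, gave -1.83 ± 0.46 (SE, limma adjusted p 0.0036), with 13.4 ± 3.33 CPM in nuclear mock, 8.89 ± 4.85 in nuclear arsenite, 5.89 ± 2.51 in cytoplasmic mock and 16.5 ± 2.05 in cytoplasmic arsenite libraries (SD, n = 3). In each of these genes the nuclear mean was the higher in mock and the cytoplasmic mean the higher after arsenite. All 12 named gene sums were called in all 22 alternatives with one sign. Where 1 library was left out, the sign was fixed by the rule that named them.

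The intron sums that follow were picked after their values were seen, for a small p or a large estimate. GPC3 introns had 960.3, 913 and 958 CPM in the nuclear mock libraries, 830.3, 868 and 865 after arsenite, 686, 484 and 519 in the cytoplasmic mock libraries and 976, 995 and 1019 after arsenite. Nuclear libraries were above all cytoplasmic mock libraries, while after arsenite the cytoplasmic values were the higher, and the interaction was -0.98 ± 0.13 (SE, limma adjusted p 2.2e-07). LRMDA introns, of a gene linked to melanocyte differentiation, gave -1.09 ± 0.15 (SE, limma adjusted p 7.7e-07), with 443 ± 4.59 CPM in nuclear mock, 383 ± 25.1 in nuclear arsenite, 190.1 ± 17.8 in cytoplasmic mock and 351 ± 40.9 in cytoplasmic arsenite libraries (SD, n = 3). MID1, a ubiquitin ligase gene, gave -1.46 ± 0.21 (SE, limma adjusted p 9.9e-07) and STRN3, a striatin of a phosphatase complex, -0.87 ± 0.13 (SE, limma adjusted p 7.9e-06). Without the trend of the prior variance GPC3, LRMDA and STRN3 were not called (limma adjusted p 0.083, 0.074 and 0.090), and STRN3 was also not called under TMM (edgeR adjusted p 0.20).

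Of the 57 intron sums called above 0, 56 were cytoplasmic in mock, as 3'UTR sums were. FRMD5 introns had 10.2, 20.9 and 4.83 CPM in the nuclear mock libraries, 37.6, 22.4 and 18.2 after arsenite, 172, 226 and 217 in the cytoplasmic mock libraries and 62.8, 67.1 and 56.3 after arsenite, and an interaction of 2.78 ± 0.31 (SE, limma adjusted p 9.4e-10). They were cytoplasmic in mock and stayed so after arsenite with a smaller gap. FMO4, which encodes a flavin monooxygenase, gave 2.55 ± 0.52 (SE, limma adjusted p 5.1e-04).

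ELAVL1 itself, whose mRNA HuR is known to bind, had gene sums of 23.3, 17.3 and 14.5 CPM in the nuclear mock libraries, 41.6, 43.2 and 37.3 after arsenite, 48.9, 46.9 and 74.9 in the cytoplasmic mock libraries and 46.9, 42.6 and 41.0 after arsenite. Nuclear values were below all cytoplasmic ones in mock and overlapped them after arsenite, with an interaction of 1.42 ± 0.27 (SE, limma adjusted p 1.3e-04). Its 3'UTR sum gave 1.75 ± 0.32 (SE, limma adjusted p 1.8e-05); under TMM scaling within 3'UTR sums this was not called (edgeR adjusted p 0.24). ACTB, encoding beta-actin, had gene sums of 256, 239 and 253 CPM in the nuclear mock libraries, 517, 496 and 458 after arsenite, 1869, 2594 and 2693 in the cytoplasmic mock libraries and 925, 1164 and 1007 after arsenite, and 2.16 ± 0.14 (SE, limma adjusted p 9.7e-16). It remained cytoplasmic, but its gap fell from 3.23 to 1.06 log2 units.

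G3BP1, the core protein of stress granules, had 102, 86.4 and 83.0 CPM in the nuclear mock libraries, 148, 181 and 129 after arsenite, 373, 431 and 509 in the cytoplasmic mock libraries and 212, 228 and 187 after arsenite. All nuclear values lay below all cytoplasmic ones in both conditions, and the interaction was 1.79 ± 0.18 (SE, limma adjusted p 1.0e-10). The 3'UTR carried it: 3'UTR sums gave 2.10 ± 0.24 (SE, limma adjusted p 8.8e-10) and intron sums -0.13 ± 0.32 (SE, limma adjusted p 0.85). MALAT1 had no called interaction, -0.06 ± 0.12 (SE, limma adjusted p 0.82). NEAT1, the scaffold of paraspeckles, had 385, 440.0 and 414 CPM in the nuclear mock libraries, 436, 554 and 626 after arsenite, 138, 116 and 121 in the cytoplasmic mock libraries and 201, 216 and 280.3 after arsenite. All nuclear values lay above all cytoplasmic ones in both conditions, and its interaction of -0.50 ± 0.17 (SE, limma adjusted p 0.038) kept its call in 12 of 22 alternatives and had a limma adjusted p of 0.31 without the trend of the prior variance.

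**Figure D4:**
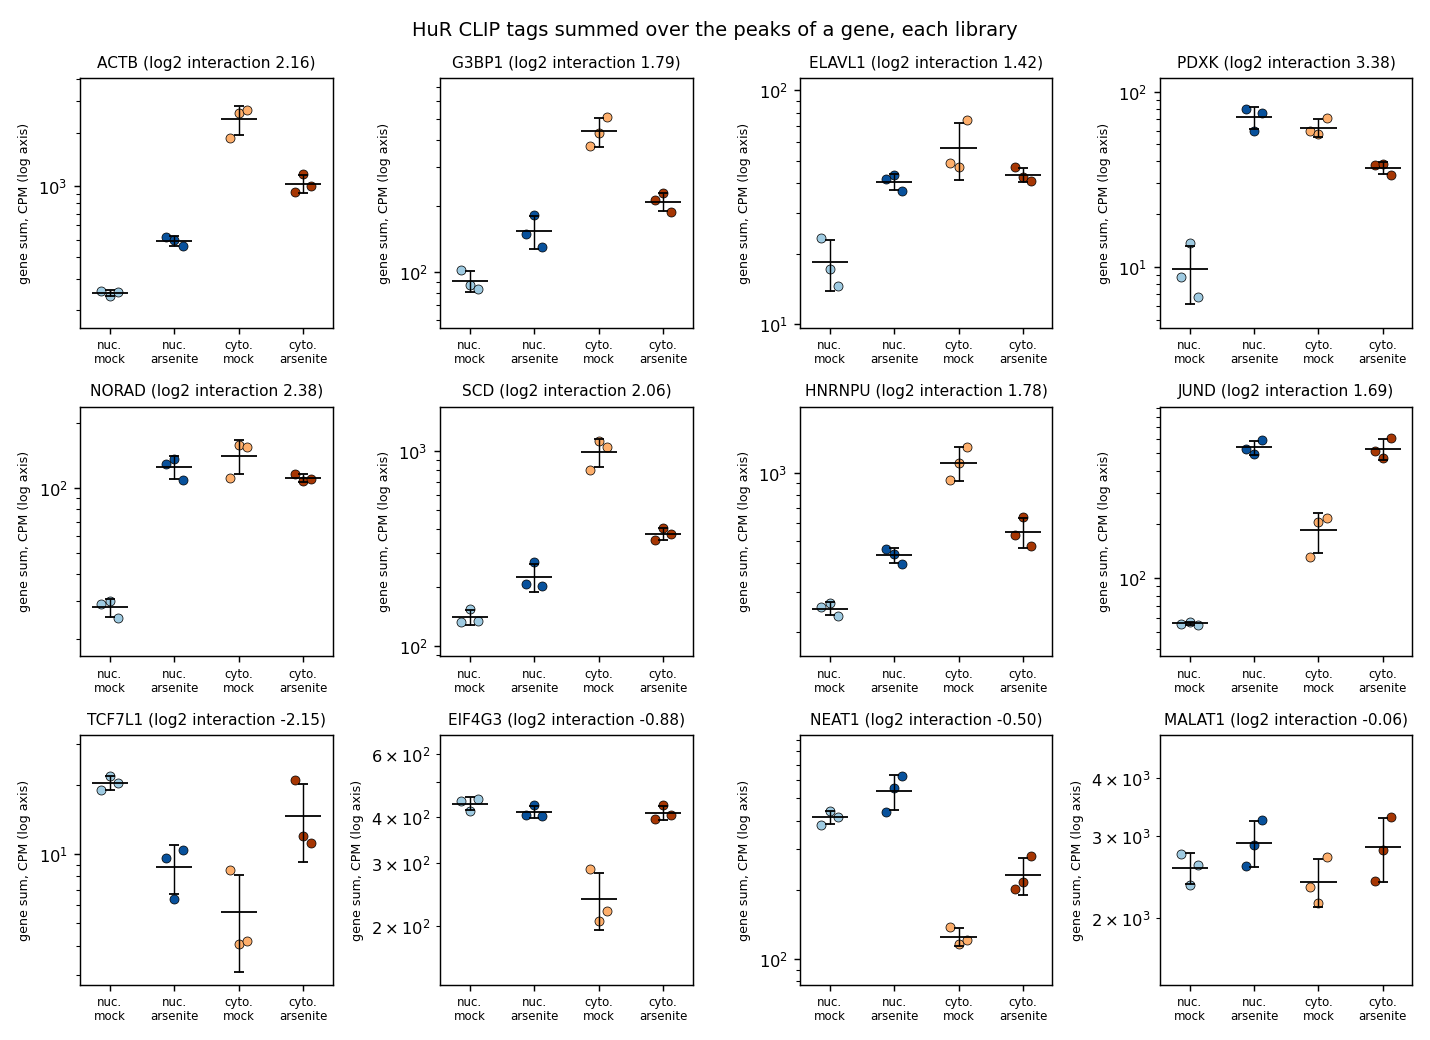
Summed CPM of 12 genes (y axis, log scale) in nuclear (nuc.) and cytoplasmic (cyto.) libraries of mock and arsenite cells (x axis); points are single libraries, lines are means and error bars 1 SD (n = 3), and each title gives the log2 interaction. ACTB, G3BP1, NORAD and SCD show a wide mock gap and a narrow arsenite gap, while EIF4G3 and TCF7L1 have the reverse order in mock and MALAT1 is level.

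Gene groups were then read against the class as a whole, in which 28.6% of 3'UTR sums were called above 0 with a median of 0.63, and 10.9% of intron sums below 0 with a median of -0.36. Call rates were higher at higher tag levels, and the lists were not matched for level. Of mRNAs for stress granule proteins, 17 of 25 tested 3'UTR sums were called above 0 (median interaction 1.43), and 9 of 26 tested intron sums were called below 0 (median interaction -0.57); 27 genes were listed. DDX6, an RNA helicase of processing bodies, had gene sums of 36.4, 40 and 38.6 CPM in the nuclear mock libraries, 134, 148 and 165 after arsenite, 162, 213 and 214 in the cytoplasmic mock libraries and 222, 227 and 243 after arsenite, an interaction of 1.65 ± 0.18 (SE, limma adjusted p 1.6e-09). Its nuclear values were all higher after arsenite, and so were the cytoplasmic ones. DDX3X, another helicase, gave 1.60 ± 0.21 (SE, limma adjusted p 1.3e-07).

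Of splicing factor mRNAs, 24 of 36 tested 3'UTR sums were called above 0 (median interaction 1.13), while of intron sums 6 of 32 were called below 0 (median -0.31). HNRNPU, a nuclear matrix RNA-binding protein, had gene sums of 256, 268 and 235 CPM in the nuclear mock libraries, 464, 439 and 398 after arsenite, 926, 1103 and 1301 in the cytoplasmic mock libraries and 531, 638 and 475 after arsenite, and 1.78 ± 0.15 (SE, limma adjusted p 6.4e-13). All groups were separate and the fractions came closer. HNRNPA0 gave 2.69 ± 0.22 (SE, limma adjusted p 2.0e-13) and HNRNPL 2.42 ± 0.21 (SE, limma adjusted p 1.6e-12). For HNRNPL the nuclear mean of 224 ± 22.1 CPM was above the cytoplasmic mean of 188 ± 33.5 CPM after arsenite (SD, n = 3).

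Of 26 HuR targets named in earlier literature, 13 of 21 tested 3'UTR sums were called above 0 (median interaction 1.36). CCND1, encoding a cyclin of the cell cycle, had gene sums of 26.9 ± 4.40 CPM in nuclear mock, 89.6 ± 17.3 in nuclear arsenite, 146 ± 45.8 in cytoplasmic mock and 109.5 ± 15.6 in cytoplasmic arsenite libraries (SD, n = 3), and 2.02 ± 0.24 (SE, limma adjusted p 8.8e-09); NCL, encoding nucleolin, gave 1.47 ± 0.21 (SE, limma adjusted p 4.3e-07). Of immediate early genes with AU-rich elements, 8 of 21 tested 3'UTR sums were called above 0 (median interaction 1.06). JUND, a member of the Jun family of transcription factors, had 55.4, 57.3 and 55.0 CPM in the nuclear mock libraries, 531, 498 and 593 after arsenite, 132, 206 and 218 in the cytoplasmic mock libraries and 516, 469.6 and 607 after arsenite. Both fractions were higher after arsenite without overlap, the nuclear one by 3.22 and the cytoplasmic one by 1.53 log2 units, which gave an interaction of 1.69 ± 0.18 (SE, limma adjusted p 7.4e-10). ATF3, a stress-induced factor, gave 2.02 ± 0.18 (SE, limma adjusted p 5.3e-12).

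Of mRNAs for decay and silencing factors, 16 of 34 tested 3'UTR sums were called above 0 (median interaction 1.04). ZFP36L1 and ZFP36L2, which encode proteins that promote decay through AU-rich elements, gave 1.58 ± 0.22 (SE, limma adjusted p 3.3e-07) and 1.78 ± 0.18 (SE, limma adjusted p 1.5e-10), and TNRC6B, of the microRNA silencing complex, 1.16 ± 0.15 (SE, limma adjusted p 1.2e-07). Nuclear transport mRNAs had 12 of 30 3'UTR sums above 0, with a median of 0.87, while 6 of 31 intron sums were called below 0 and gene sums were called 4 above and 4 below 0 of 33, with a median of -0.12, against 8.06% above, 5.45% below and -0.01 over all. RANBP1, a regulator of the Ran GTPase, had gene sums of 98.0 ± 19.7 CPM in nuclear mock, 138 ± 5.79 in nuclear arsenite, 571 ± 95.5 in cytoplasmic mock and 186 ± 35.0 in cytoplasmic arsenite libraries (SD, n = 3), and 2.11 ± 0.19 (SE, limma adjusted p 3.7e-12), and KPNB1, encoding importin beta, 1.57 ± 0.16 (SE, limma adjusted p 2.0e-10).

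Of cholesterol and lipid synthesis genes, 14 of 24 tested 3'UTR sums were called above 0 (median interaction 1.19). SCD, the stearoyl-CoA desaturase, had 133, 155 and 133 CPM in the nuclear mock libraries, 207, 269 and 204 after arsenite, 806, 1129.6 and 1049 in the cytoplasmic mock libraries and 349, 401 and 376 after arsenite, an interaction of 2.06 ± 0.16 (SE, limma adjusted p 1.0e-13), and a cytoplasmic lead in both conditions. MSMO1, of sterol synthesis, gave 1.35 ± 0.19 (SE, limma adjusted p 3.6e-07) and HMGCS1, the synthase upstream of HMG-CoA reductase, 0.95 ± 0.13 (SE, limma adjusted p 4.7e-07). Of hepatocyte plasma protein genes 2 of 16 3'UTR sums were called above 0, with a median of 0.78.

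ALB, encoding albumin and taken from the hepatic markers, had gene sums of 209.8, 239 and 235 CPM in the nuclear mock libraries, 76.9, 84.8 and 64.1 after arsenite, 382, 509 and 558 in the cytoplasmic mock libraries and 134, 161 and 150.2 after arsenite. Both fractions were lower after arsenite to a like degree, the cytoplasmic values stayed above the nuclear ones, and the interaction was 0.09 with a 95% interval of -0.26 to 0.44 (limma adjusted p 0.8). FGB, encoding fibrinogen beta, gave 0.93 ± 0.25 (SE, limma adjusted p 0.0073) with lower means in both fractions. The hepatic marker sum was lower after arsenite in both fractions too, at 774 to 825 CPM in nuclear and 1057 to 1183 CPM in cytoplasmic libraries.

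Of NRF2 oxidative stress genes, 6 of 16 tested 3'UTR sums were called above 0 (median interaction 1.03); TXNRD1, thioredoxin reductase, gave a gene sum interaction of 0.98 ± 0.18 (SE, limma adjusted p 4.0e-05), and NFE2L2, which encodes NRF2 itself, -0.59 ± 0.17 (SE, limma adjusted p 0.0097). Of heat shock and chaperone genes, 7 of 22 tested 3'UTR sums were called above 0 (median interaction 0.81). HSP90AA1, a cytosolic chaperone, had the smallest p of that list among gene sums, at 2.57 ± 0.23 (SE, limma adjusted p 5.3e-12), and HSPA1B, given above, the largest estimate. Of integrated stress response genes 4 of 11 3'UTR sums were above 0, with a median of 0.76; PPP1R15B, a phosphatase subunit of that response, gave 1.67 ± 0.23 (SE, limma adjusted p 3.8e-07).

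Ribosomal protein and respiratory chain mRNAs had the lowest 3'UTR medians of the 14 lists plotted. Of cytosolic ribosomal protein genes, 5 of 47 tested 3'UTR sums were called above 0 (median interaction 0.19), and of nuclear-encoded oxidative phosphorylation genes, 3 of 23 tested 3'UTR sums were called above 0 (median interaction 0.28). RPL23, a protein of the large ribosomal subunit, gave a gene sum interaction of 1.16 ± 0.25 (SE, limma adjusted p 5.1e-04), with 25.4 ± 8.15 CPM in nuclear mock, 29.9 ± 1.67 in nuclear arsenite, 211 ± 51.1 in cytoplasmic mock and 111 ± 18.0 in cytoplasmic arsenite libraries (SD, n = 3). No oxidative phosphorylation gene sum of 38 tested was called by limma or by edgeR, and 3 had an unadjusted p under 0.05, the smallest 0.032 for NDUFC2. Of translation factors 12 of 31 3'UTR sums were above 0, with a median of 0.88. EIF2S3 gave 1.63 ± 0.20 (SE, limma adjusted p 2.5e-08), and EIF4G3 -0.88 ± 0.15 (SE, limma adjusted p 1.6e-05). In EIF4G3 the 3'UTR sum (1.66) and the intron sum (-0.99) had opposite signs, and both were called by limma. Without the trend of the prior variance the gene sums of FGB, NFE2L2 and RPL23 were not called (limma adjusted p 0.087, 0.15 and 0.052).

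**Figure D5:**
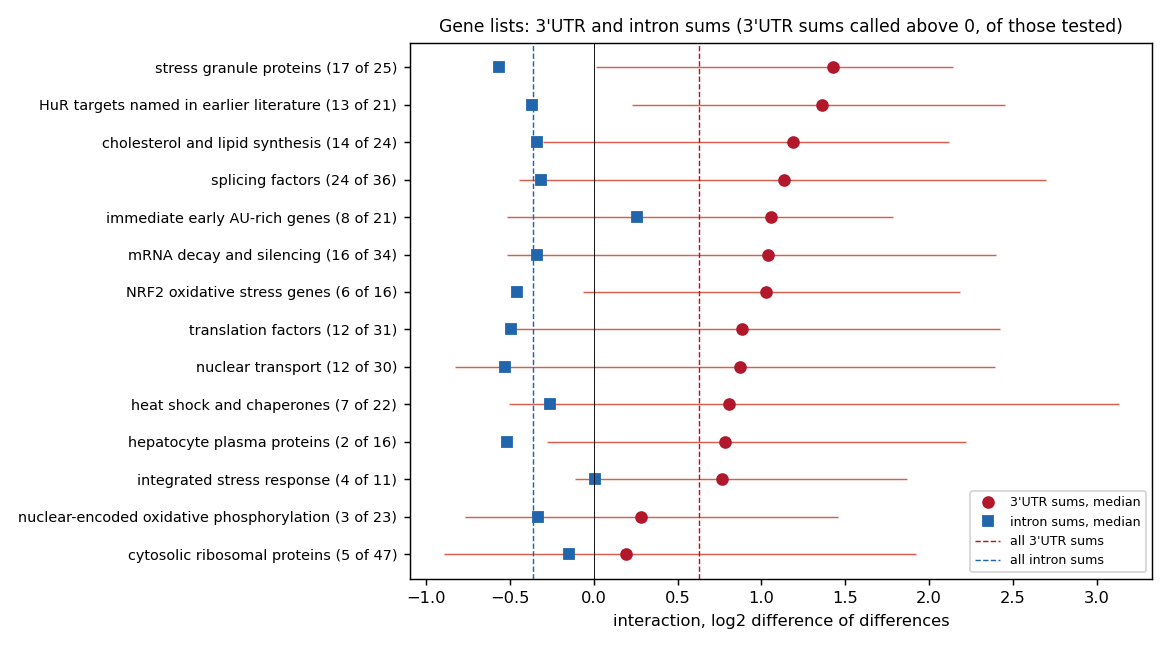
Median interaction (x axis, log2) of 3'UTR sums (red circles; thin lines span the lowest to the highest member) and of intron sums (blue squares) for 14 gene lists (y axis), each with the number of 3'UTR sums called above 0 of those tested; dashed lines are the medians over all 3'UTR sums and all intron sums. Stress granule mRNAs have the highest 3'UTR median, 1.43, and ribosomal protein mRNAs the lowest, 0.19, against 0.63 over all.

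Long non-coding RNAs went both ways. NORAD, a cytoplasmic RNA known for binding Pumilio proteins, had 29.1, 30.0 and 25.1 CPM in the nuclear mock libraries, 129.7, 137 and 108 after arsenite, 112, 158 and 154 in the cytoplasmic mock libraries and 116, 108 and 109.9 after arsenite. The nuclear mock libraries were far below the rest, the fractions overlapped after arsenite, and the interaction was 2.38 ± 0.21 (SE, limma adjusted p 1.4e-12). TUG1 gave 1.22 ± 0.23 (SE, limma adjusted p 1.0e-04). OIP5-AS1, also known as a cytoplasmic RNA, was not called, at 0.39 ± 0.29 (SE, limma adjusted p 0.43). Of 13 tested gene sums in this list 2 were called above and 5 below 0, where 8.06% and 5.45% of all gene sums were, the latter including LINC-PINT, at -0.79 ± 0.19 (SE, limma adjusted p 0.0029), and the imprinted nuclear RNA KCNQ1OT1, at -0.66 ± 0.20 (SE, limma adjusted p 0.017). KCNQ1OT1 had 101 ± 9.15 CPM in nuclear mock, 100.1 ± 6.12 in nuclear arsenite, 60.2 ± 5.61 in cytoplasmic mock and 96.0 ± 10.3 in cytoplasmic arsenite libraries (SD, n = 3), so its nuclear lead of mock cells was within the spread after arsenite.

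Of host transcripts of small nucleolar RNAs 1 was called above and 1 below 0 of 16 gene sums tested, with a median of -0.03, near the shares and the median of -0.01 over all gene sums. SNHG1 had 485, 492 and 462 CPM in the nuclear mock libraries, 271, 188 and 242 after arsenite, 30.8, 38.7 and 52.7 in the cytoplasmic mock libraries and 28.9, 38.1 and 36.9 after arsenite. All nuclear values lay above all cytoplasmic ones, and the nuclear ones were lower after arsenite, with an interaction of -0.85 ± 0.21 (SE, limma adjusted p 0.0035). SNHG29, which was cytoplasmic in both conditions, gave 0.75 ± 0.23 (SE, limma adjusted p 0.018), and was called in 16 of 22 alternatives. Without the trend of the prior variance SNHG1 and LINC-PINT were not called (limma adjusted p 0.11 and 0.060).

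The contrast was also fitted in libraries that share none with the fractions: 16 libraries of lines in which APEX, a peroxidase that biotinylates its surroundings, was directed to the nucleus or the cytoplasm and HuR complexes near it were captured. These held 2981 to 35859 tags in peaks, with 2981 to 5011 in the cytoplasmic mock and 4837 to 21738 in the cytoplasmic arsenite libraries. The nuclear and cytoplasmic lines there are different cell lines. Their libraries carry 2 prefixes in the sample descriptions, which were taken as 2 sets. Limma called 0 of 5504 gene sums there, with 250 at an unadjusted p under 0.05, and edgeR was not run on them. Of 5415 gene sums tested in both systems 48.4% had one sign in both, and of 1416 called in the fractions 44.5%, so signs matched about as often as they differed. Genes called above 0 in the fractions had a median interaction of -0.20 there, and genes called below 0 had a median of 0.12, against -0.13 over all genes. These medians move with the pseudocount: with the smaller one of 0.571 CPM they were -0.48, 0.0041 and -0.37, and with one of 9.14 CPM -0.06, 0.12 and -0.03. Within the 2 sets of proximity libraries, a difference between which was not tested, genes called above 0 had -0.47 in one and 0.14 in the other. Genes called below 0 had -0.09 and 0.29, and the medians over all genes were -0.20 and -0.0037. Genes called above 0 thus lay below all genes in the first set and above them in the second.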

How the data were processed

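HuR CLIP-seq tags were measured in 12 fraction libraries and, for the comparison at the end, 16 proximity libraries. The deposited signal is, per peak of 20 nt and library, the number of tags divided by a library total by the authors; Bowtie2, SAMtools, bedtools, HOMER and GRCh38.p14 are named per the submitters' processing notes, without roles. All non-zero values (100%) were within 0.01 of a whole multiple of the smallest in their library, so whole tags were recovered for all values, and CPM is the deposited signal times 1000000. Peak calling, duplicate removal and annotation are not given in the sources used here. Of 395471 lines, 8257 repeats were dropped.

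Values were tested as log2(CPM + 2.28) where non-zero in at least 3 of the 12 libraries, with limma 3.58.1 (R 4.3.3, linear model over 4 groups, trended prior) and Benjamini-Hochberg adjustment; changes of low features are understated on this scale. Alternatives were edgeR 4.0.16 on the recovered tags (quasi-likelihood), other pseudocounts, filters and scalings, a prior without trend, and each library left out. Sums run over a gene's peaks, 84358 peaks carried no gene name, and the intron class holds retained introns. Errors are SD over 3 libraries or SE of the fit. The scripts were tested on simulated data. All 12 libraries share the same prefix in their sample descriptions, and the prefix alone does not say how they were sequenced.

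Named features were the 6 largest called estimates per direction among peaks with a gene name, at most 1 per gene, and among gene sums, and 3 for ratios, with one sign in all 81 combinations of 1 library per group, 5 fixed genes, and up to 3 members of smallest p per list; ALB, KCNQ1OT1 and OIP5-AS1 come from marker lists. Named intron sums, 3'UTR sums with many tags and 5'UTR and coding sequence peaks are outside the rule and were picked after their values were seen. Some transcripts that the rule would name are not reported here. The members and lists were chosen with earlier results of these data known.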

Additional observations from a re-analysis of the deposited data

Results flagged for a closer look

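The counts below were singled out because limma tested the difference itself between the change with arsenite in the nuclear and in the cytoplasmic libraries, so they repeat the comparison the libraries were made for. It called 1179 peaks, 1706 gene sums, 2101 3'UTR sums, 1059 intron sums and 2211 ratios of 3'UTR to intron tags within a gene. The class shares were singled out for the size of the same difference, since their relabelling test is not specific to it. The share of tags differed by 25.3 percentage points for 3'UTRs and by -19.8 points for introns. No cause of these differences was tested.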

How the results depend on the processing

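The direction of both class shares was kept with each library left out, with 3'UTR values of 23.8 to 27.96 points and intron values of -22.0 to -18.6 points, all at an exact permutation p of 0.005. With the replicate block the values were again 25.3 and -19.8 points, but dividing the 6 same-numbered differences between fractions 3 against 3 cannot give an exact permutation p below 0.1. Counted over peaks with a tag in place of tags, the interactions were 7.99 and -7.93 points. The replicate numbers are shared by all groups in the labels. Deviations of same-numbered libraries correlated at -0.133 to 0.153 over peaks and -0.267 to 0.150 over gene sums, with 3 of 18 pairs over 0.1 in each. Between nuclear and cytoplasmic arsenite libraries they were 0.139, 0.153 and 0.087 over peaks and 0.100, 0.029 and 0.150 over gene sums. Each was above those of the same nuclear library with the other cytoplasmic arsenite libraries. In mock this held for library 2 only. The numbers were not taken to pair libraries, but pairing of fractions within a treatment was not fitted in limma. With the replicate block, which gives all groups one effect per number, limma called 1334 peaks, 1749 gene sums, 2112 3'UTR sums, 979 intron sums and 2191 ratios.

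Counts of calls depended on filter, scaling and prior. For peaks limma called 2057 with the filter at 6 libraries, 1772 (1752 above 0 and 20 below) after centring on the median, which moves the median by 0.25, and 1959 without the trend; leaving out 1 library gave 728 to 1528, the low values being 734 without nuclear arsenite library 1, 728 without cytoplasmic arsenite library 1 and 738 without cytoplasmic arsenite library 3. For gene sums 987 were called without the trend, and 1359 to 2030 with 1 library left out. For 3'UTR sums 1060 were called after centring and 309 under TMM in edgeR, which moves the median by -1.14, and 1773 to 2289 with 1 library left out. For intron sums 408 were called after centring, 71 under TMM, which moves the median by 0.54, and 26 without the trend, and 721 to 1418 with 1 library left out. For ratios 1363 were called with the smaller pseudocount and 170 after centring, which moves the median by -0.96, and 1776 to 2452 with 1 library left out. In the proximity lines limma called 1 gene sum with the replicate block, and 0 when the 4 pairs of one set, with a chi-square per degree of freedom of 0.99 to 1.28 between libraries, were counted once (225 at an unadjusted p under 0.05). The nuclear mock fraction libraries were nearly as close, at 1.23 to 1.35, and were counted as 3; the other fraction groups had 1.81 to 3.46.

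The 30 peaks, gene sums and ratios named for their size were run under 648 alternatives, of which 633 kept the sign and the call, 15 lost the call and 0 changed sign. The rule that named them required the same sign in every combination of a single library per group. Where a library was left out, the sign was therefore fixed by that rule, and those alternatives could test the call only. For the 49 gene sums that are fixed genes or list members, 1034 of 1078 alternatives stayed on the same side of the threshold and 3, all of MALAT1, which was not called, changed sign. Depth sets the limit at low levels: a count of 0 allows up to 3 tags, or 1.71 to 4.37 CPM, by counting error only, and under a log2 level of 3 485 of 4839 3'UTR sums were called. The log2 scale with a pseudocount, library totals as the scale and tags without a stated removal of duplicates all enter each value.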
